A study of Mus musculus with 6 samples.

Results

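The miR-99, miR-100 and miR-125 families of mouse skin were described in small RNA sequencing libraries of irradiated and non-irradiated animals. Members were chosen by name: every entry of the count table that is an arm of miR-99a, miR-99b, miR-100, miR-125a or miR-125b, 11 entries of 1480 in all, 5 of them 5p arms and 6 of them 3p arms. The families were picked for description with the fold changes of miR-99a-5p and miR-100-5p between the groups already known, so the contrast between the groups is given for all members as a description, with no p-value. The UVA group held skin of mice exposed to ultraviolet A every other day over 4 months, to a total of 89.88 J/cm2. Mice of the non-irradiated group received no such treatment. Each group had 3 libraries of total RNA from skin, and the labels give no strain, sex, age or body site. Nothing in the labels ties a replicate to an animal of its own, so p-values measure the spread between these samples only, which may be technical.

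A microRNA (miRNA) is cut from a hairpin as a duplex of a 5p and a 3p strand. The strand that is loaded into Argonaute (the guide) is usually abundant and the other (the passenger) is rare, and the seed near the 5′ end of the guide largely sets which mRNAs are bound. miR-125 is the relative of lin-4 of Caenorhabditis elegans, and genes of the miR-99/100, let-7 and miR-125 families lie beside each other in flies and mammals. In mouse skin, miR-125b is known for holding stem cells back from differentiation, and in human keratinocytes the miR-99 family is known for lowering mTOR and IGF1R.

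The 5 mature 5p sequences fall into 2 groups by their seed, and they are shown because the main contrast below lies between miRNAs of the same seed. They are the RefSeq sequences on GRCm38.p6, 5′ to 3′, and capitals mark the seed, bases 2 to 8.
mmu-miR-99a-5p: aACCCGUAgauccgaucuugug
mmu-miR-100-5p: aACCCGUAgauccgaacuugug
mmu-miR-99b-5p: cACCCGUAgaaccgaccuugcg
mmu-miR-125b-5p: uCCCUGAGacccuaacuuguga
mmu-miR-125a-5p: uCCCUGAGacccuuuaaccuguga
All 11 member entries matched a RefSeq mature sequence by name, and all 11 deposited sequences were identical to it. With positions counted from 1 at the 5′ end, miR-100-5p and miR-99a-5p differ only by A16U, outside the seed. miR-99a-5p and miR-99b-5p differ by A1C, U11A, U16C and U21C. miR-125a-5p lies 3 edits from miR-125b-5p. No entry that is not a member carries the seed ACCCGUA, and miR-351-5p is the only other entry with the seed CCCUGAG.

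The hairpins of the members lie in 3 clusters, each with a let-7 hairpin. On GRCm38, Mir99a (chr16:77598936-77599000), Mirlet7c-1 and Mir125b-2 (chr16:77646273-77646343) span 47.4 kb of the plus strand, in introns of the non-coding Mir99ahg. Mir125b-2 also overlaps an exon of the transcript C130023A14Rik. Mir100 (chr9:41531425-41531504), Mirlet7a-2 and Mir125b-1 (chr9:41581926-41582002) span 50.6 kb of the plus strand, in introns of the non-coding 3110039I08Rik. Mir125b-1 also overlaps an exon of the transcript Gm28119, and Mir100 an exon of the non-coding Gm48742 on the opposite strand. Mir99b (chr17:17830188-17830257), Mirlet7e and Mir125a (chr17:17830812-17830879) span 0.692 kb of the plus strand within Spaca6, the first pair in an intron and Mir125a overlapping an exon. miR-125b-5p is the same sequence from Mir125b-1 and Mir125b-2, so its reads cannot be divided between chromosomes 9 and 16. Its 3p arms can, because they differ in sequence:
miR-125b-1-3p: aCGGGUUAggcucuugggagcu
miR-125b-2-3p: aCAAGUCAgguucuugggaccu

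Counts summed to between 8194504 and 12817972 miRNA reads per UVA library and between 7653819 and 17192811 per non-irradiated library. The total reads behind the authors' scaling were fewer in every UVA library (at most 21896213) than in every non-irradiated one (at least 26904012). Few low counts were recorded in non-irradiated replicates 1 and 2, with 21 and 34 entries at 1 to 9 reads, against 299 in replicate 3 and 579 to 591 in the UVA libraries. Keratinocyte miRNAs, which mark skin, were abundant throughout: miR-203-3p averaged 50936 CPM (reads scaled to a common library size by TMM factors) after UVA and 42457 CPM without it. Of 7 such miRNAs 1 was called higher, miR-205-5p, and their sum was 34090 to 86159 CPM and 44041 to 53951 CPM in the same order. Summed over 5 tested miRNAs of skeletal muscle, led by miR-1a-3p, the level was 41907 to 58523 CPM in the UVA libraries and 318623 to 479266 CPM in the non-irradiated ones. At the group mean, most of the sum was miR-1a-3p, at 36976 and 362204 CPM, and it was called lower (log2 fold change -3.29). In UVA replicate 3 miR-206-3p led instead, with 288992 reads against 196015 of miR-1a-3p. Unlike miR-1a-3p, miR-133b-3p was called higher (1.84). The others, miR-206-3p (-1.16), miR-499-5p (-1.57) and miR-133a-3p (-0.024), were not called. Summed over 5 fibroblast miRNAs, led by an entry shared by miR-199a-3p and miR-199b-3p, the level was 19107 to 28739 and 2816 to 4234 CPM, with 3 called higher. The pair of smooth muscle miRNAs, led by miR-143-3p, summed to 28412 to 34386 and 51159 to 149173 CPM, with 1 called lower. miR-211-5p of melanocytes stood at 69.0 to 372 and 4.96 to 8.30 CPM and was called higher, and miR-122-5p of liver stood at 2.53 to 10.5 and 51.8 to 153 CPM and was called lower. With UVA first, sums overlapped for endothelium (14102 to 25741 and 20480 to 26426.5 CPM) and leukocytes (369 to 1362 and 486 to 792 CPM). Those of erythroid miRNAs (527 to 3096 and 528 to 1260 CPM) and miR-9-5p of neural cells (85.5 to 131 and 126 to 195 CPM) overlapped too. Of these, miR-126a-5p of endothelium and miR-150-5p of leukocytes were called lower. The part of the shifts in cell type miRNAs in the results below was not tested. In bulk samples, fewer cells of a type and less RNA per cell cannot be told apart.

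miR-99a-5p, the guide strand of Mir99a, was the most abundant member in the irradiated skin. It stood at 69206, 63794 and 94544 CPM in UVA replicates 1, 2 and 3 and at 23148, 15727 and 26479.9 CPM in the non-irradiated replicates. All 3 irradiated libraries lay above all 3 others, and the entry ranked 1 to 4 among all 1480 entries in UVA skin and 10 to 15 in non-irradiated skin. The group means were 75848 ± 16416 and 21785 ± 5505 CPM (SD, n = 3 per group), a log2 fold change of 1.80 (SE 0.36).

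miR-100-5p, which has the same seed, differed in the other direction. Its level was 2129, 3778 and 2996 CPM in the UVA replicates and 23010.2, 22060 and 19177 CPM in the non-irradiated replicates. Every irradiated library lay far below every non-irradiated one, and the non-irradiated values were close together. The group means were 2968 ± 825 and 21416 ± 1996 CPM (SD, n = 3 per group), and the log2 fold change was -2.85 (SE 0.39).

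miR-99b-5p, the third miRNA with the seed, was lower by a smaller margin. It stood at 1358, 2000 and 3169 CPM in the UVA replicates and at 4215, 5047 and 4112 CPM in the non-irradiated replicates. The groups did not overlap on this scale, and the log2 fold change was -1.03 (SE 0.43). As an unscaled share of miRNA reads they overlapped, at 0.262% ± 0.11 and 0.367% ± 0.018 (SD, n = 3 per group). It was not called in the fit of all libraries. It was called lower without UVA replicate 3 (log2 fold change -1.39), and also with all libraries when entries within 1 edit of each other, which miR-99b-5p is not, were summed before the fit (-1.23).

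**Figure D1:**
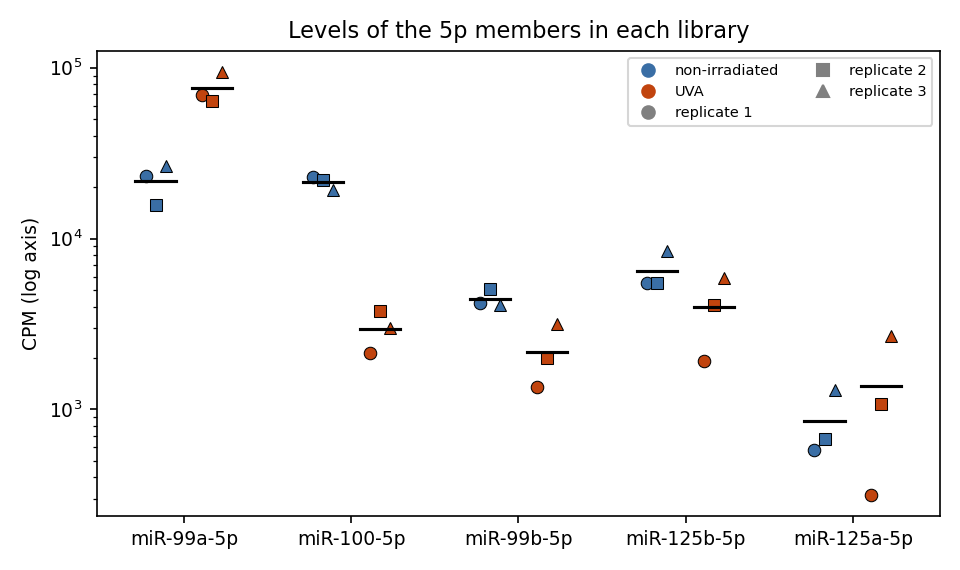
Level of each 5p member in CPM on a log axis, with a point per library (shape gives the replicate) and a bar at the group mean of 3 libraries. miR-99a-5p is higher and miR-100-5p and miR-99b-5p are lower in all 3 UVA libraries (orange) than in all 3 non-irradiated libraries (blue), while the points of miR-125b-5p and miR-125a-5p overlap between groups.

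The balance of the pair with 1 base of difference does not depend on library size or scaling, since it is taken within a library. miR-99a-5p had 32.5, 16.9 and 31.6 reads for each read of miR-100-5p in UVA replicates 1, 2 and 3. In the non-irradiated replicates the same ratio was 1.01, 0.713 and 1.38, so the pair stood near equality there. The log2 ratio averaged 4.69 ± 0.53 after UVA and -0.0047 ± 0.48 without it (SD, n = 3 per group), a difference of 4.70 that ranged from 4.46 to 5.01 when each library was left out in turn. In the UVA libraries the reads given to miR-100-5p equalled 3.08% to 5.92% of those given to miR-99a-5p, and in the non-irradiated libraries 72.4% to 140% of them. No source used here says how reads close to both sequences were assigned, and the part of misassigned reads in either entry was not tested.

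Within the seed, then, the make-up differed more than the sum. Of all reads with the seed ACCCGUA, miR-99a-5p made up 95.2%, 91.7% and 93.9% after UVA and 46.0%, 36.7% and 53.2% without it. miR-100-5p took 45.2% ± 6.50 of these reads in non-irradiated and 3.78% ± 1.43 in irradiated skin, and miR-99b-5p 9.47% ± 2.00 and 2.63% ± 0.67 (SD, n = 3 per group). Summed, the 3 miRNAs stood at 72693, 69572 and 100710.0 CPM with UVA and at 50373, 42834 and 49769 CPM without. The sums did not overlap between the groups, and their mean log2 difference was 0.75. Its size depends on the scaling. Unscaled, the 3 miRNAs took 9.77% ± 1.94 of miRNA reads with UVA and 3.97% ± 0.63 without (SD, n = 3 per group). Of the authors' total reads they took 4.83% ± 0.35 and 1.72% ± 0.41. In a further fit, all entries within 1 edit of each other were summed, among them miR-99a-5p with miR-100-5p. The log2 fold change of that pair's sum was 0.70 (SE 0.31) and it was not called. On the CPM scale of the other results, the sums of the pair did not overlap between the groups, with a mean log2 difference of 0.85.

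**Figure D2:**
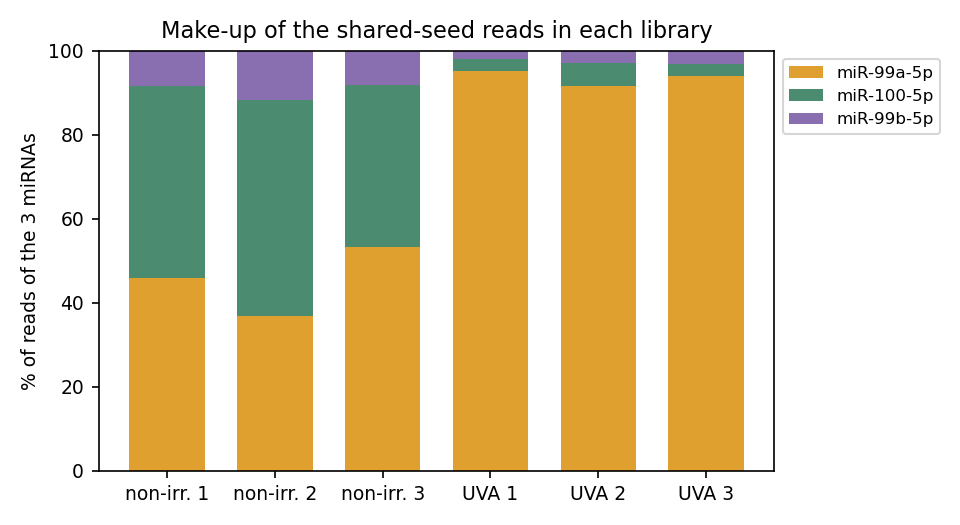
Percent of the reads of miR-99a-5p, miR-100-5p and miR-99b-5p that each took in a library, as stacked bars from 0 to 100. miR-100-5p takes 38.5% to 51.5% in the 3 non-irradiated libraries and 2.93% to 5.43% in the 3 UVA libraries, where miR-99a-5p takes over 91%.

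Together the 11 member entries took 9.21%, 9.10% and 13.1% of the miRNA reads after UVA, against 4.70%, 3.76% and 5.37% without it. Exact Clopper-Pearson 95% intervals of the shares reached no more than 0.023 percentage points to either side, which covers counting error only. Shares were also taken without the reads of miR-1a-3p, miR-133a-3p, miR-133b-3p, miR-206-3p and miR-378a-3p. This set differs from the skeletal muscle miRNAs summed above, as it holds miR-378a-3p and not miR-499-5p. Without those reads, the members took 11.2% ± 2.43 in UVA and 6.90% ± 1.40 in non-irradiated skin (SD, n = 3 per group). On that scale miR-99a-5p took 9.79% ± 2.00 and 2.75% ± 0.92, and miR-100-5p 0.383% ± 0.10 and 2.66% ± 0.45. Leaving these reads out changes only the total that the shares are taken of, and reads of the members themselves that come from muscle cells remain in.

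The guides of the miR-125 family varied more from library to library. miR-125b-5p stood at 1930, 4078 and 5865 CPM in the UVA replicates and at 5509, 5534 and 8444 CPM in the non-irradiated replicates. UVA replicate 3 lay inside the non-irradiated range, the log2 fold change was -0.71 (SE 0.47) and it was not called. Scaled by the authors' total reads, the log2 fold change of miR-125b-5p was 0.0067. miR-125a-5p stood at 318, 1083 and 2697 CPM after UVA and at 581, 668 and 1307 CPM without it. Its UVA libraries covered the whole range of the others, with a log2 fold change of 0.68 (SE 0.70) that turned to -0.28 without UVA replicate 3.

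The balance of this pair differed as well. Reads of miR-125b-5p exceeded those of miR-125a-5p 6.07, 3.77 and 2.17 times in the UVA replicates and 9.48, 8.29 and 6.46 times in the non-irradiated replicates. The ranges did not overlap, and the mean log2 ratio differed by -1.12 (SD 0.74 in UVA and 0.28 in non-irradiated skin, n = 3 per group). miR-351-5p, the seed mate outside the families, took 0.707% to 1.16% of the reads with the seed CCCUGAG in UVA skin and 0.487% to 0.751% in non-irradiated skin.

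Of the 10 members that passed the filter on low counts, 1 was called higher, miR-99a-5p, and 1 was called lower, miR-100-5p (edgeR quasi-likelihood test, adjusted p of 0.05 or lower over all 499 tested miRNAs). Both were known to differ when the families were picked, so their calls, also with libraries left out, are description only. Over all tested miRNAs, 13.6% were called higher, 8.22% lower and 21.8% in either direction. The groups did not overlap for 3 members and for 48.3% of all tested miRNAs. Log2 fold changes were positive in 5 and negative in 5 of the 10, with a median of 0.22 beside 0.27 over all tested miRNAs. The call of miR-99a-5p was lost without non-irradiated replicate 1 (log2 fold change 1.60) and without non-irradiated replicate 2 (1.30). miR-100-5p was called without each single library, at log2 fold changes from -3.14 to -2.73, and was not called without non-irradiated replicates 1 and 2 together (-3.07).

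In non-irradiated skin the order of the 5p levels was miR-99a-5p, miR-100-5p, miR-125b-5p, miR-99b-5p and miR-125a-5p. The first pair overlapped, with miR-99a-5p above miR-100-5p in 2 of 3 libraries, and each later step was without overlap. Irradiated skin had the order miR-99a-5p, miR-125b-5p, miR-100-5p, miR-99b-5p and miR-125a-5p, in which only the step below miR-99a-5p was without overlap. The sequences are 22 to 24 bases long, so read counts needed no correction for length. Ligation of adapters is known to favour some small RNAs over others, and levels of different miRNAs are therefore read counts and not molecules.

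The next question was whether members moved with their neighbours in the same cluster. On chromosome 16, the log2 fold change of miR-99a-5p was 1.80, while the 3p arm of Mir125b-2 had a log2 fold change of -0.24 (SE 0.48) and that of Mirlet7c-1 one of 0.27 (SE 0.70). miR-125b-2-3p stood at 113, 130.5 and 69.8 CPM after UVA and at 99.4 to 144 CPM without it, and the groups overlapped. For each read of miR-125b-2-3p there were 613, 489 and 1354 reads of miR-99a-5p in the UVA replicates and 233, 109 and 211 in the non-irradiated replicates. The ratio was higher in every irradiated library. It sets a 5p arm against a 3p arm, and arms of a single hairpin also differed in log2 fold change. For miR-99b these were -1.03 (5p) and 1.07 (3p). A difference between arms and a difference between neighbours cannot be told apart in this ratio. The sign of miR-125b-2-3p turned positive with library size alone (0.32), and that of let-7c-1-3p turned negative when non-irradiated replicate 2 (-0.39) or UVA replicate 3 (-0.22) was left out.

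On chromosome 9 the spread between neighbours was wider. The log2 fold change of miR-100-5p was -2.85, whereas that of miR-125b-1-3p was 0.74 (SE 0.61), at 176, 88.5 and 447 CPM after UVA and 134, 156 and 135 CPM without it. Without UVA replicate 3, which held the highest of these values, the log2 fold change of miR-125b-1-3p was -0.084. Reads of miR-100-5p exceeded those of miR-125b-1-3p 12.1, 42.7 and 6.71 times in the UVA replicates and 172, 141 and 142 times in the non-irradiated replicates, a mean log2 difference of -3.32. This ratio, too, mixes a difference between arms with a difference between neighbours. The 3p arms of the Mir125b hairpins, each from its own chromosome, stood in a ratio (miR-125b-1-3p over miR-125b-2-3p) of 1.56, 0.679 and 6.39 in UVA and 1.34, 1.08 and 1.08 in non-irradiated skin. The irradiated libraries thus lay on both sides of the narrow non-irradiated range. let-7a-2-3p, the 3p arm of the let-7 hairpin of this cluster, had 0 to 3 reads in a library and was not tested.

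On chromosome 17, where the 3 hairpins lie closest together, each guide comes from a single hairpin of the cluster. let-7e-5p rose from 384 ± 135 to 1928 ± 994 CPM (SD, n = 3 libraries each). Its log2 fold change was 2.33 (SE 0.56, adjusted p = 0.0189 by edgeR), while that of miR-99b-5p was -1.03 and that of miR-125a-5p 0.68. For each read of let-7e-5p there were 1.65, 0.905 and 1.15 reads of miR-99b-5p in the UVA replicates and 9.21, 22.1 and 8.84 in the non-irradiated replicates. The groups were far apart, with a mean log2 difference of -3.34. let-7e-5p differs from let-7a-5p by U9G alone and had 9.80% to 14.1% as many reads as let-7a-5p in UVA and 4.37% to 5.52% in non-irradiated skin, and the part of misassigned reads was not tested. let-7e-5p was not called without UVA replicate 2 (log2 fold change 2.21), non-irradiated replicate 1 (2.14) or non-irradiated replicate 2 (1.67). The fit with all entries within 1 edit of each other summed joined let-7a-5p, let-7b-5p, let-7c-5p, let-7e-5p and let-7f-5p. There the log2 fold change of their sum was 0.47 and it was not called (edgeR adjusted p = 0.297). The 3p arms of these hairpins all had positive log2 fold changes, of 1.07 (SE 0.64) for miR-99b-3p, 0.37 (SE 0.65) for let-7e-3p and 1.68 (SE 0.76) for miR-125a-3p, and were not called.

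Of the let-7 entries of the 3 clusters, 6 in all, 5 were tested, 1 was called higher (let-7e-5p), none was called lower, and the log2 fold change was above 0 in all 5. Over all tested miRNAs, 13.6% were called higher and 8.22% lower. Their median log2 fold change was 0.27, near those of let-7c-1-3p (0.27) and let-7e-3p (0.37). let-7a-5p (1.20, SE 0.49, edgeR adjusted p = 0.0938) and let-7c-5p (1.03, SE 0.39, edgeR adjusted p = 0.077) also come from hairpins elsewhere. Both were called higher with library size alone (1.72 and 1.56), and both were closer to 0 and not called without non-irradiated replicate 2 (0.60 and 0.52) or in the sum of the 5 let-7 entries (0.47). For each read of let-7c-5p there were 2.94, 1.79 and 1.93 reads of miR-99a-5p in UVA and 1.12, 1.16 and 1.42 in non-irradiated skin.

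**Figure D3:**
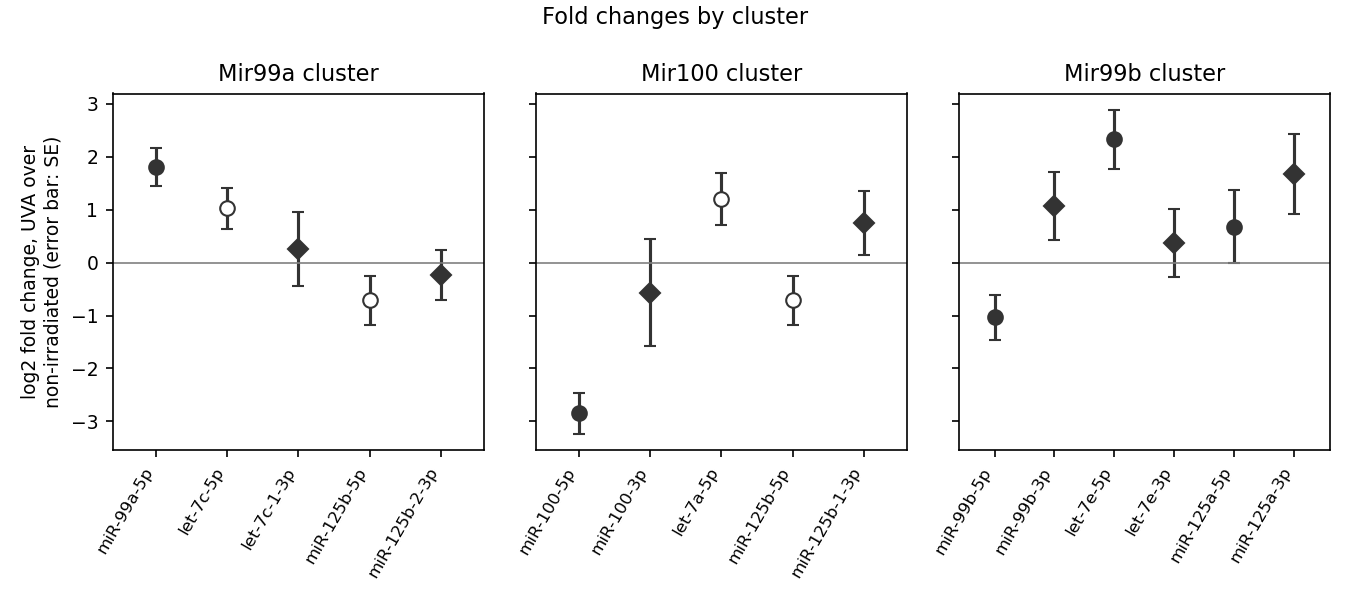
Log2 fold change (UVA over non-irradiated, edgeR; bars are SE) of each tested entry of the Mir99a, Mir100 and Mir99b clusters, with circles for 5p and diamonds for 3p arms. Open circles are sequences that more than a single hairpin gives. Circles lie on both sides of 0 in each panel, from -2.85 for miR-100-5p to 1.20 for let-7a-5p in the Mir100 panel. In the Mir99a and Mir100 panels this rests on open circles, whose reads cannot be placed in a single cluster.

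The 3p arms were the rarer strand for miR-99a, miR-99b, miR-100, miR-125a and, with the reads of both hairpins pooled, miR-125b. miR-99a-3p had 2, 6 and 0 reads in the UVA replicates and 0 in each non-irradiated replicate, beside 181848 to 1084902 reads of the 5p arm. It did not pass the filter, and a count of 0 allows up to 0.00108% to 0.00165% of the arm reads in the non-irradiated libraries. miR-100-3p had 11, 6 and 8 reads in UVA and 20, 12 and 2 in non-irradiated skin, with a log2 fold change of -0.57 (SE 1.01). Values of such low counts are touched by the scarcity of entries with 1 to 9 reads in non-irradiated replicates 1 and 2.

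Relative to their guides, the 3p strands of miR-99b, miR-100 and miR-125a took a larger part of the reads in UVA libraries, clear of counting error for miR-99b alone. For miR-100 the 3p arm took 0.0330%, 0.0115% and 0.0274% after UVA and 0.00722%, 0.00415% and 0.00152% without it, from 2 to 20 reads a library, and the 95% interval of UVA replicate 2 overlaps those of all 3 non-irradiated libraries. For miR-99b the 3p arm took 2.87%, 4.74% and 6.04% of the reads of both arms in the UVA replicates and 1.27%, 1.44% and 0.864% in the non-irradiated replicates. miR-125a-3p took 2.47%, 1.24% and 1.26% in UVA and 0.427%, 1.23% and 0.510% in non-irradiated skin, with no overlap but a near tie between the lowest irradiated and the highest non-irradiated library, whose 95% intervals overlap. For miR-125b the arms of both hairpins together took 13.0%, 5.10% and 8.09% against 4.06%, 5.15% and 2.99%, which overlapped. The difference in mean log2 ratio of 5p to 3p reads (UVA minus non-irradiated) was -1.95 for miR-99b, -2.56 for miR-100, -1.28 for miR-125a and -1.11 for miR-125b. The neighbour of miR-99b and miR-125a, let-7e, went the other way: its 3p arm took 0.746%, 0.424% and 0.393% in UVA and 1.94%, 2.73% and 1.05% in non-irradiated skin, and its log2 ratio was higher by 1.86. The 95% intervals of UVA replicate 1 (0.605% to 0.909%) and non-irradiated replicate 3 (0.730% to 1.47%) overlap for let-7e.

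**Figure D4:**
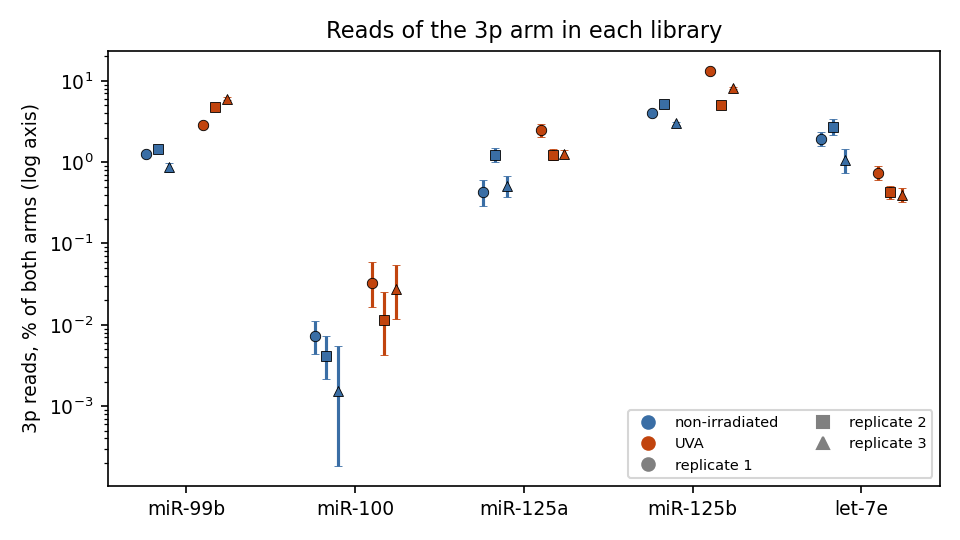
Percent of the reads of both arms that fell on the 3p arm, on a log axis, with a point per library and its exact 95% binomial interval. The UVA points (orange) lie above the non-irradiated points (blue) for miR-99b, miR-100 and miR-125a, overlap for miR-125b and lie below them for let-7e.

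The miRNAs whose pattern over the 6 libraries was nearest to that of each guide were listed by the root mean square distance of centred log2 CPM, among 489 tested miRNAs that are not members. Nearest to miR-99a-5p were miR-196a-5p (distance 0.28), the shared entry let-7a-1-3p/let-7c-2-3p (0.30) and miR-27a-3p (0.32). Nearest to miR-100-5p were miR-195a-3p (0.38), miR-299a-5p (0.38) and miR-335-3p (0.41). miR-99b-5p lay closest to miR-574-3p (0.20), miR-434-3p (0.21) and miR-431-5p (0.21), and miR-125b-5p to miR-434-3p (0.21), miR-154-5p (0.30) and miR-337-5p (0.34). miR-125a-5p lay closest to miR-351-5p (0.38), which has the same seed, then to miR-193a-5p (0.38) and miR-26a-2-3p (0.43). These distances describe 6 libraries in 2 groups, and a likeness can come from the group difference alone.

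In the authors' deposited table, 2 of the 11 member entries had a q-value of 0.05 or lower. The authors' deposited table gives log2 fold changes of 1.85 for miR-99a-5p, -2.82 for miR-100-5p, -1.04 for miR-99b-5p, -0.71 for miR-125b-5p and 0.65 for miR-125a-5p. That of miR-99a-3p is infinite in the authors' deposited table, because its non-irradiated mean is 0.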

How the data were processed

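Small RNA of mouse skin was sequenced in 3 UVA and 3 non-irradiated samples, from total RNA isolated with the mirVana kit and TruSeq Small RNA libraries, per the labels' protocols. The deposited counts give whole reads for each mature miRNA. The submitters' processing notes name Bowtie, and no source used here gives its version, the genome build or the release of the miRNA database. RPM values deposited beside them equal the counts over a constant for each library, and served only to recover the authors' total reads. Their mean normalized counts (a signal per group), fold ratio, log2 fold change, p-values and q-values come from the authors, per the file headers, by a tool that no source used here names. In each table, 2 lines hold no entry and were not used.

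The contrast was fitted by edgeR 4.0.16, quasi-likelihood, in R 4.3.3 (TMM scaling, filterByExpr, Benjamini-Hochberg adjustment over all 499 tested miRNAs), which was tested on simulated data. Calls use an adjusted p of 0.05. CPM rest on library sizes multiplied by TMM factors of 1.19 to 1.22 in UVA and 0.762 to 0.897 in non-irradiated libraries. An SE is the absolute log2 fold change over the square root of F. Ratios within a library use counts plus 0.5. A count of 0 allows up to 3 counts. Intervals are exact Clopper-Pearson 95% intervals and cover counting error only, as reads carry no molecular identifiers. Every pair of replicates differed by more than sampling noise. Sequences come from RefSeq, hairpins and host genes from GENCODE M21 (GRCm38). The text names all member entries, the let-7 entries of the 3 clusters and the 3 nearest patterns of each guide; miR-351-5p was added because it shares a seed. Alternatives were other scalings, no filter, DESeq2 1.42.0, limma-voom 3.58.1, a replicate block, left-out libraries and summed near-identical entries. The members and lists were chosen with earlier results of these data known.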

Additional observations from a re-analysis of the deposited data

How the results depend on the processing

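Of 42 recomputed results, counts of calls included, 9 changed sign in at least 1 alternative; causes were not tested. The difference in log2 ratio of miR-99a-5p to miR-100-5p was 4.46 to 5.01 without single libraries. Members called higher were 1 with all libraries, 2 with the authors' total reads, 0 to 1 without single libraries and 0 without non-irradiated replicates 1 and 2 together. Members called lower were 1, then 1 to 2 without single libraries and 0 without that pair. let-7 entries called higher were 1, then 3 by library size alone, 3 by the authors' totals, 0 to 3 without single libraries and 0 without that pair. Without that pair only 1 of 594 tested miRNAs was called at all, against 109 of 499 with all libraries, and without UVA replicate 2 it was 38 of 564. With the replicate number as a block, 1 member was called higher and 1 lower, and 106 miRNAs in all; deviations of same-numbered libraries correlated at 0.085, -0.076 and -0.027, so the numbers were not taken as pairs. The difference in the members' share of reads was 5.86 percentage points, 3.17 of the authors' total reads, and 4.55 to 6.54 without single libraries.

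Log2 fold changes that turned were those of miR-100-3p (0.031 with the authors' total reads), miR-100-5p (0.70 when summed with miR-99a-5p, by construction), miR-125b-2-3p (0.32 unscaled by TMM, 0.56 scaled by the authors' totals) and miR-125b-5p (0.0067 with the authors' total reads). Without non-irradiated replicates 1 and 2 together, miR-125a-5p was at -0.48 and let-7c-1-3p at -0.52. Without single libraries, miR-125a-5p ranged from -0.28 to 1.04, miR-125b-1-3p from -0.084 to 1.14 and let-7c-1-3p from -0.39 to 0.58. The log2 ratio difference ranged from -0.17 to 1.44 for miR-125b-1-3p to miR-125b-2-3p and from -1.05 to 0.37 for miR-125b-2-3p to let-7c-1-3p. Over all tested miRNAs the median log2 change was 0.27, against 0.81 when only library size was used and 1.07 when the authors' totals were. All 15 nearest patterns were the same with library size alone. Depth limits miR-99a-3p, miR-100-3p and let-7a-2-3p, each with at most 20 reads in a library.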
